A study of Saccharomyces cerevisiae with 4 samples.

Results

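The genes described here are 36 chaperone genes and targets of the heat shock factor Hsf1 in budding yeast, chosen by name from the probe-set annotation and grouped by where their proteins work: 26 in the cytosol and nucleus, 5 in mitochondria and 5 in the endoplasmic reticulum. They are 36 of 5449 S. cerevisiae genes that the annotation names. RNA of 2 strains was measured on one-colour Affymetrix arrays, with 2 arrays of wild-type cells of the laboratory strain W303-1A and 2 of the SSG1-1 mutant, which the series calls long-lived. Both strains were kept in YPD at 25 °C and then grown for 12 h in SDC medium of pH 6.0 to early-log phase, and the labels name no heat shock. Which gene carries SSG1-1, whether the mutant is a single clone and whether replicate arrays stem from separate cultures are points on which the labels are silent. The p-values thus reflect the spread among these 4 arrays alone, and that spread may be technical.

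Hsf1 is a transcription factor that is essential in yeast and binds DNA as a trimer. It keeps a core set of chaperone genes active in unstressed cells and raises them further when proteins misfold. In the cytosol these chaperones include Hsp70 proteins, which bind unfolded stretches with the help of J proteins and exchange factors, Hsp90 proteins with their co-chaperones, and the Hsp104 disaggregase. Mitochondria have their own Hsp70 and chaperonin, while folding in the endoplasmic reticulum rests on Kar2 and the oxidative enzymes Pdi1 and Ero1, which are also under control of the unfolded protein response. Several stress-inducible chaperone genes answer to the general stress factors Msn2 and Msn4 as well.

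Every one of the 36 genes had a probe set that passed the detection filter, and each was called present in both strains on the array per strain that has usable calls. Values are signals after quantile normalization, and wild-type arrays 1 and 2 are always given before mutant arrays 1 and 2. The array number, whose meaning the labels leave unstated, went with a larger difference than the strain for 62.5% of the 5376 probe sets tested. Over all probe sets the log2 difference, taken as mutant minus wild type throughout, had a median of -0.02 once normalized, against -0.15 as deposited, and differences are read relative to that shift. As a check of cell type, the 5 a-cell marker genes had signals between 2898 and 13873 on all arrays, and the 3 alpha-cell marker genes between 17.9 and 110.2.

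The comparison of mutant with wild type asked whether the chaperone genes are expressed differently in the long-lived strain. The cytosolic Hsp70 gene SSA1 had the highest mutant signal relative to wild type, 1.58-fold higher, and the small heat shock protein gene HSP42 the lowest, 1.36-fold lower. The other 34 genes lay between 1.15-fold higher (SSE2) and 1.15-fold lower (SSA4). No gene of the 36 passed limma's adjusted threshold of 0.05 (adjusted p between 0.998 and 0.999), where 0.0186% of all probe sets passed as higher (1 probe set, for HRI1) and 0% as lower. At an unadjusted p under 0.05, limma on the quantile-normalized values also gave 0 of the 36, against 2.72% higher and 1.8% lower of all probe sets. The median log2 difference was 0.04 for the 26 cytosolic and nuclear genes, 0.0048 for the 5 mitochondrial genes and -0.08 for the 5 genes of the endoplasmic reticulum. All 36 together had a median of 0.03. As deposited, with the shift of -0.15 still in them, the 3 medians were -0.08, -0.10 and -0.17. The cytosolic and nuclear median changed sign without wild-type array 2 (-0.051) and without mutant array 1 (-0.036), and the mitochondrial one ran from -0.070 to 0.067 with 1 array left out. The difference between compartments was not tested.

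For 9 of the 36 genes the mutant arrays were both higher than either wild-type array, against 14% of all probe sets, and for 5 they were both lower, against 18%. The 9 were HSP82, HSC82, SSA1, SSA2, SSB2, SSE1, YDJ1, HSP104 and HSP10, and the 5 were HSF1, SBA1, SSA3, SSA4 and KAR2. This order depended on the scaling. In the deposited values 0 genes lay above and 5 below, against 3.4% and 22.3% of all probe sets. With median centring 4 lay above and 4 below, against 14.8% and 13.9%. SBA1 and SSA4 were the 2 genes that lay below under all 3 scalings, and 0 lay above under all 3. The shift of -0.15 as deposited favours lying below, and the share of all probe sets below under all 3 was not counted.

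**Figure D1:**
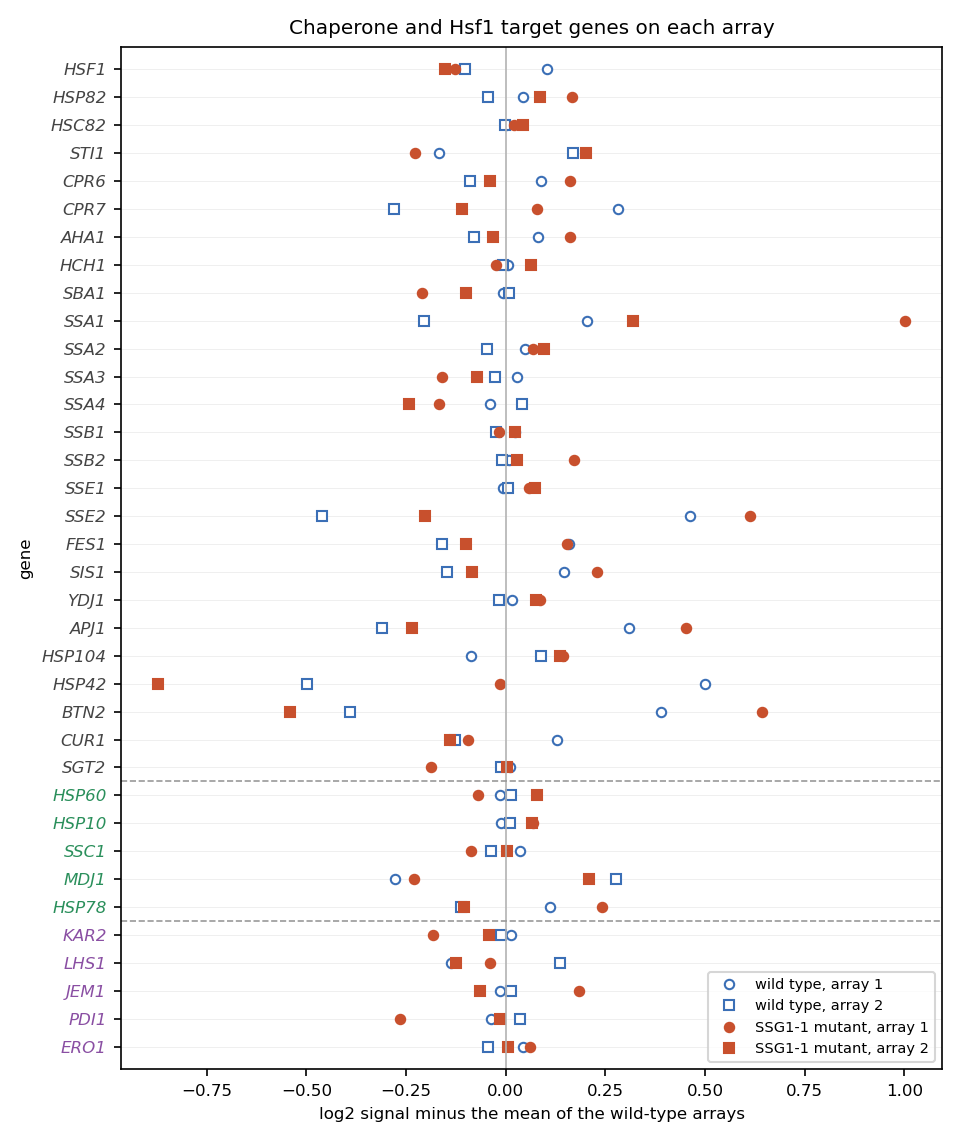
Log2 signal of each of the 36 genes on each array, minus the mean of the wild-type arrays of that gene (horizontal axis, log2 units). Open symbols are wild type and filled symbols the SSG1-1 mutant, circles are arrays numbered 1 and squares arrays numbered 2, and dashed lines part the cytosolic and nuclear, mitochondrial and endoplasmic reticulum genes. The SSA1 signal of mutant array 1 lies furthest right, while for HSP42, BTN2, SSE2 and APJ1 circles and squares stand apart within both strains.

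HSF1 (YGL073W), the heat shock factor itself, had signals of 272 and 236 in wild-type cells against 232 and 228 in mutant cells. Both mutant arrays lay just below the lower wild-type array, by less than the gap between the wild-type arrays. As deposited and with median centring the HSF1 arrays of the strains overlapped. Its log2 difference was -0.14 ± 0.17 (SE, n = 2 arrays per strain), with a 95% confidence interval from -0.58 to 0.30.

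The pair of Hsp90 genes had small measured differences between the strains. HSP82 (YPL240C), the heat-inducible gene, had signals of 1029 and 969 in wild-type cells against 1121 and 1060.3 in mutant cells. HSC82 (YMR186W), which is made constitutively, had 15231 and 15195 in wild-type cells against 15433 and 15664 in mutant cells. The mutant arrays were higher for both genes, by log2 differences of 0.13 ± 0.13 and 0.03 ± 0.05 (SE, n = 2 per strain), which were -0.02 and -0.03 as deposited, above the shift of -0.15. The 95% interval of HSP82 ran from -0.21 to 0.47, reaching 1.38-fold higher. For HSC82 the interval, from -0.10 to 0.16, reached 1.12-fold higher. With median centring, where the mutant and wild-type arrays of HSC82 overlapped, its interval ran from -0.26 to 0.52.

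The 6 Hsp90 co-chaperone genes had log2 differences between -0.15 and 0.06. SBA1 (YKL117W), the yeast p23 that binds Hsp90 in its closed state, was at the low end, with signals of 6144 and 6209 in wild-type cells against 5341 and 5766 in mutant cells. Its mutant arrays stayed below the wild type under each scaling, at a log2 difference of -0.15 ± 0.09 (SE, n = 2 per strain, limma adjusted p = 0.998). STI1, which links Hsp70 to Hsp90, had signals of 2834 and 3579.8 in wild-type cells against 2721 and 3660.4 in mutant cells. For STI1 the arrays numbered 1 were the low ones in both strains, and the strains overlapped. The cyclophilin gene CPR7 was split the other way, at 2453 and 1662 in wild-type cells against 2133 and 1871 in mutant cells. The second cyclophilin gene CPR6 (0.06 ± 0.12), the ATPase activator gene AHA1 (0.06 ± 0.12) and its relative HCH1 (0.02 ± 0.07) also had overlapping arrays.

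Within the SSA family of cytosolic Hsp70 genes, SSA1 and SSA2 had positive differences and SSA3 and SSA4 negative ones under all 3 scalings. Some were small, at 0.03 for SSA2 as deposited and -0.06 for SSA3 with median centring, where its strains overlapped. This contrast was not itself tested. SSA1 (YAL005C) had signals of 2559.9 and 1929.7 in wild-type cells against 4448 and 2774 in mutant cells. Mutant array 1 was far above the other 3, and mutant array 2 lay close to the higher wild-type array. The log2 difference of 0.66 ± 0.27 (SE, n = 2 per strain) had a 95% interval from -0.04 to 1.36, which held both no change and a 2.57-fold higher level, and limma's unadjusted p was 0.0602. Its rank was 83 among the 5376 probe sets ordered from the highest difference. Without mutant array 1 the difference was 0.32 and without mutant array 2 it was 1.00. In the deposited values, at 2922 and 1879 in wild-type cells against 3968 and 2895 in mutant cells, the strains overlapped. With median centring the mutant arrays lay above the wild type, at a difference of 0.69 with a 95% interval from 0.02 to 1.37. There limma's unadjusted p was 0.0453 and its adjusted p 0.9998.

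SSA2 (YLL024C), the other SSA gene made in unstressed cells, had signals of 16848 and 15779 in wild-type cells against 17094 and 17438 in mutant cells. Its log2 difference was 0.08 ± 0.06 (SE, n = 2 per strain). As deposited the SSA2 arrays of the strains overlapped, and the SE with median centring was 0.16. SSA4 (YER103W), a gene switched on by heat, had 237 and 251 in wild-type cells against 217 and 206 in mutant cells. Here the arrays of each strain were close together after quantile normalization, though the mutant arrays were at 181 and 233 as deposited. The mutant was lower under each scaling, at -0.21 ± 0.16 (SE) in the reported fit. SSA3, a stress-induced gene too, was at 231 and 222 in wild-type cells against 202 and 215 in mutant cells. Its difference was -0.12 ± 0.16 (SE), and none of these 3 genes passed the threshold (limma adjusted p = 0.998 for each). The SSA genes are close paralogs, so their probe sets may share RNA, which was not tested.

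The SSB genes encode Hsp70 proteins that bind nascent chains at the ribosome. SSB2 had signals of 15134 and 14960.1 in wild-type cells against 16936 and 15342 in mutant cells, at a log2 difference of 0.10 ± 0.07 (SE, n = 2 per strain). As deposited and with median centring the strains overlapped for SSB2, and the SE with median centring was 0.19. SSB1 has 2 probe sets, and the brighter one carries the suffix for probes shared with related genes. That probe set read 21101, 20422, 20515 and 21101, near the top of the arrays, where quantile normalization gives arrays the same few values. The second probe set of SSB1 was at 0.02 ± 0.07 (SE), and both overlapped between strains, so the SSB1 value is uncertain for that gene alone.

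**Figure D2:**
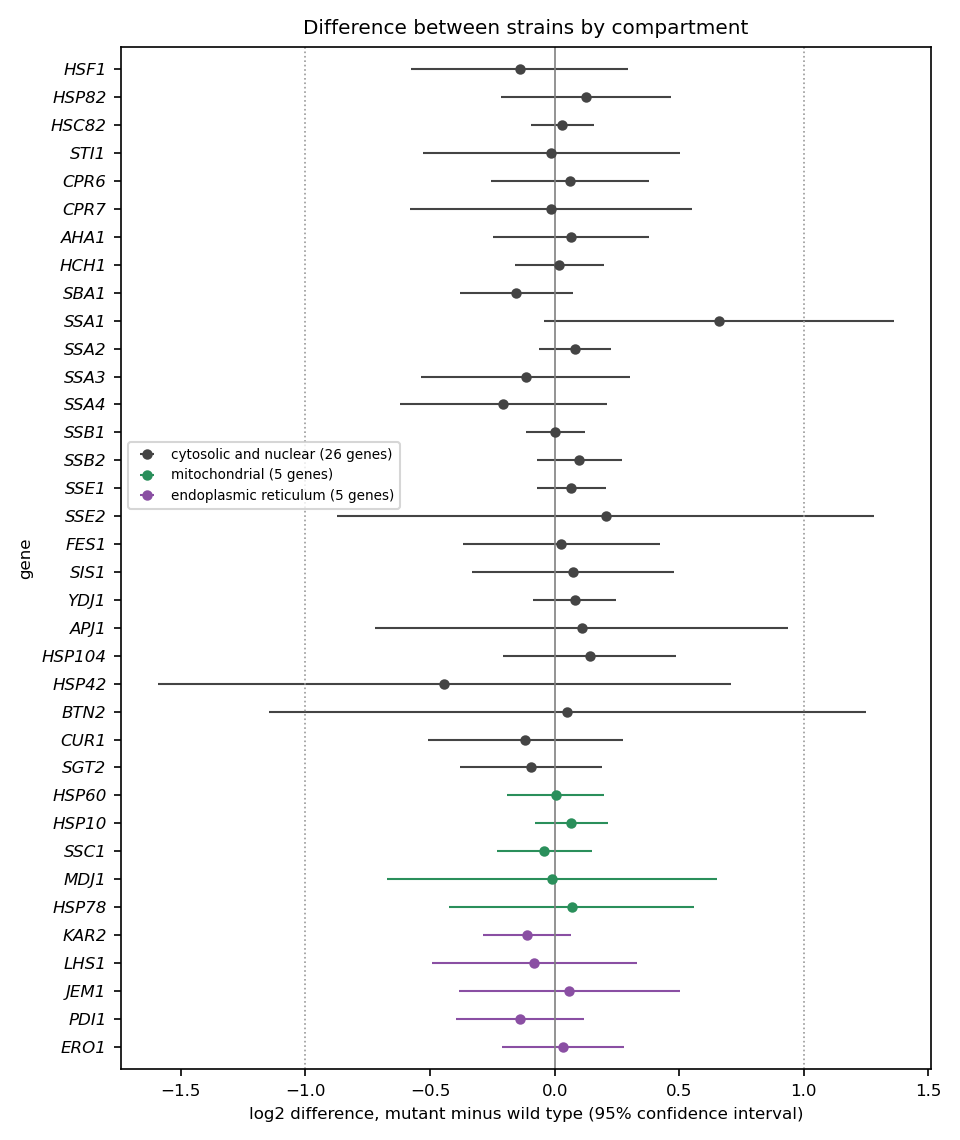
Log2 difference, mutant minus wild type, of each of the 36 genes (horizontal axis, log2 units), with limma's 95% confidence interval as the bar and colours for the 3 compartments. Dotted lines mark a 2-fold difference in either direction. The intervals of 32 genes lie inside them, and those of SSA1, SSE2, HSP42 and BTN2 reach beyond.

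Exchange factors and J proteins drive the Hsp70 cycle. SSE1, the main Hsp110 exchange factor gene, had signals of 12859.9 and 12974 in wild-type cells against 13459 and 13595 in mutant cells, a small offset with close replicates (0.07 ± 0.05, SE, n = 2 per strain). As deposited and with median centring the strains overlapped for SSE1, and the SE with median centring was 0.16. Its stress-induced paralog SSE2 was at 313 and 165 in wild-type cells against 348 and 198 in mutant cells. The SSE2 arrays numbered 1 were the high ones in both strains, and its log2 difference of 0.20 ± 0.42 (SE) had an interval from -0.87 to 1.28. FES1, a second kind of exchange factor, stood at 0.03 ± 0.15.

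Among the J protein genes, YDJ1 had close replicates, at 9354 and 9136 in wild-type cells against 9816 and 9743 in mutant cells (0.08 ± 0.06, SE, n = 2 per strain). Its strains overlapped as deposited and with median centring, where the median-centred SE was 0.15. SIS1, the essential J protein gene, was at 0.07 ± 0.16 and APJ1 at 0.11 ± 0.32. APJ1 had signals of 617 and 401 in wild-type cells against 681 and 423 in mutant cells, which is the same split by array number as in SSE2.

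Of the 36 genes, BTN2 and HSP42, which handle aggregates, had the largest SEs. HSP104, the disaggregase gene, had signals of 1223 and 1382 in wild-type cells against 1436 and 1428 in mutant cells, at a log2 difference of 0.14 ± 0.14 (SE, n = 2 per strain). HSP42 (YDR171W), whose product gathers misfolded proteins into deposits, had 334 and 167 in wild-type cells against 234 and 129 in mutant cells. Mutant array 1 lay between the wild-type arrays, and the difference was -0.44 ± 0.45 (SE), with an interval from -1.59 to 0.71. Without wild-type array 1 it was 0.06 and without wild-type array 2 it was -0.94, while leaving out mutant array 1 or 2 gave -0.87 or -0.01. BTN2 and CUR1 encode related factors that sort misfolded proteins. BTN2 was at 1303 and 759 in wild-type cells against 1553 and 683 in mutant cells, so its mutant arrays lay on either side of both wild-type arrays (0.05 ± 0.47, SE). CUR1 stood at -0.12 ± 0.15, and SGT2, which passes tail-anchored proteins on to their insertion pathway, at -0.09 ± 0.11.

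The mitochondrial genes had log2 differences between -0.04 and 0.07. HSP60, the chaperonin gene, had signals of 10985 and 11193 in wild-type cells against 10563 and 11718 in mutant cells. Its partner HSP10 had 11371 and 11541 in wild-type cells against 12004 and 11997 in mutant cells. Both HSP10 arrays of the mutant lay above those of the wild type, with close replicates in each strain (0.07 ± 0.06, SE). As deposited and with median centring the HSP10 arrays of the strains overlapped, and the SE with median centring was 0.15. SSC1, the Hsp70 gene of the import motor and the matrix, stood at -0.04 ± 0.07 (SE, n = 2 per strain). MDJ1, its J protein gene, was at 825 and 1212 in wild-type cells against 852 and 1156 in mutant cells. The arrays numbered 1 were the low ones for MDJ1 in both strains, as for STI1, and its difference was -0.01 ± 0.26. HSP78, the matrix disaggregase gene, was at 0.07 ± 0.19.

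In the endoplasmic reticulum, KAR2, the Hsp70 gene of this compartment, had signals of 14676 and 14428 in wild-type cells against 12819 and 14129.9 in mutant cells. Its log2 difference of -0.11 ± 0.07 (SE, n = 2 per strain) was carried mostly by mutant array 1, and without that array it was -0.04. With median centring it was -0.0096 and the strains overlapped. PDI1, the disulphide isomerase gene, had 12343 and 12992 in wild-type cells against 10534 and 12528 in mutant cells, again with mutant array 1 as the low one (-0.14 ± 0.10, SE). Without that array the PDI1 difference was -0.016. Its strains overlapped here, but as deposited and with median centring both mutant arrays lay below both wild-type arrays, at -0.08 with median centring. ERO1, whose product reoxidizes Pdi1, had 4714 and 4437 in wild-type cells against 4769 and 4589 in mutant cells, and its strains overlapped. The exchange factor gene LHS1 stood at -0.08 ± 0.16 and the J protein gene JEM1 at 0.06 ± 0.17.

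How small a difference these arrays could show varied from gene to gene. The 95% interval lay within 2-fold of no change for 32 of the 36 genes (against 88.2% of all probe sets), and within 1.5-fold for 29 (against 52.7%). The median SE was 0.134 for the 36 genes and 0.163 for all probe sets, and the median absolute difference was 0.077 and 0.114. These values and intervals hold for quantile normalization, and the SEs changed with the scaling. With median centring the SE of HSC82 rose from 0.05 to 0.16, while that of HSP42 fell from 0.45 to 0.39. Whether the 36 genes still had smaller SEs than all probe sets there was not tested. These intervals are not adjusted for the number of genes. They come from the fit without array number, so a split by number widens them. In bulk RNA, fewer cells that express a gene and less RNA per cell cannot be told apart.

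Of the 36 genes, 19 differed more by array number than by strain, against the 62.5% of all probe sets given above. Both arrays numbered 1 lay above both numbered 2 for 12 of the 36 genes (against 26.4% of all probe sets) and below them for 4 (against 29.8%). BTN2 was 0.98 higher on the log2 scale on arrays numbered 1, HSP42 0.93, SSE2 0.87 and APJ1 0.65, while MDJ1 was at -0.50 and STI1 at -0.38. SSA1 was 0.54 higher on arrays numbered 1, with overlap. HSC82 and HSP10 stood at -0.01 each. Each strain has 1 array of each number, so a shift shared by same-numbered arrays cancels from the strain difference and widens its SE. Whether the number acted alike in both strains was not tested.

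**Figure D3:**
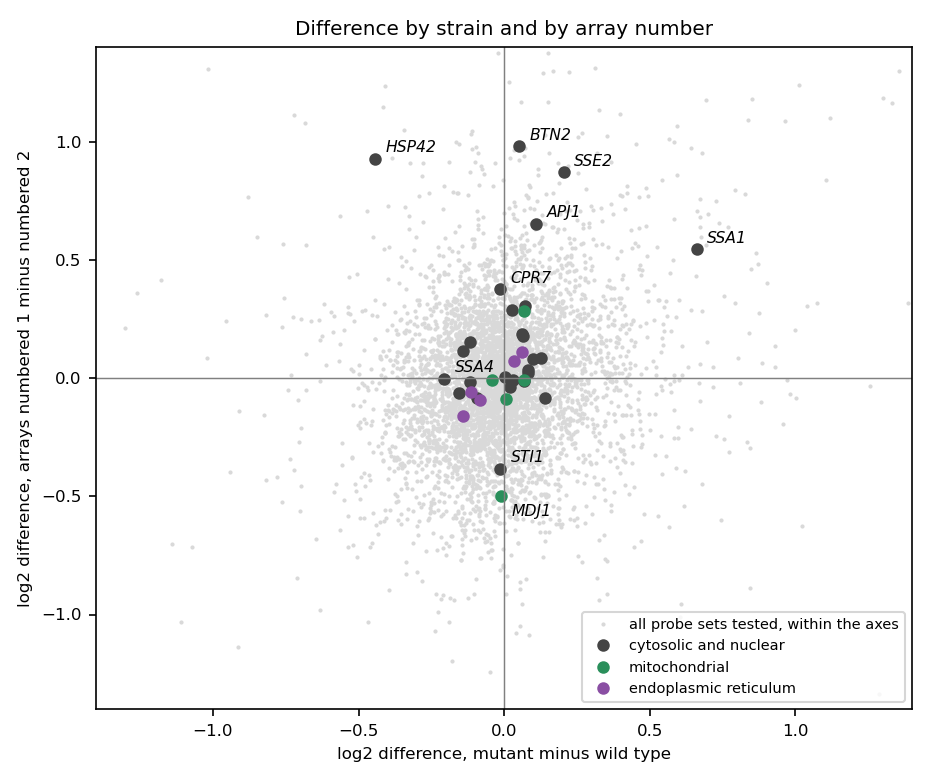
Log2 difference by strain (horizontal axis, mutant minus wild type) against log2 difference by array number (vertical axis, number 1 minus number 2), both in log2 units and from the same 4 arrays. Coloured points are the 36 genes by compartment, and grey points are all probe sets tested that lie within the axes. SSA1 stands out to the right and HSP42 to the left, and BTN2, HSP42, SSE2 and APJ1 stand highest.

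Other chaperone genes, in 9 lists, were read in the same fit. Of their 78 names, 76 had a tested probe set, and 0 passed the adjusted threshold in either direction (1 was lower at an unadjusted p under 0.05 by limma). Both mutant arrays were higher for 7 and lower for 18 of the 76, against 14% and 18% of all probe sets, and the median log2 difference was -0.04. These counts moved with the scaling. As deposited 1 was higher and 17 lower, against 3.4% and 22.3% of all probe sets. With median centring 7 were higher and 13 lower, against 14.8% and 13.9%. Prefoldin, which hands actin and tubulin to the cytosolic chaperonin, had 4 of 6 genes with both mutant arrays lower and 0 higher (against 18% and 14% of all probe sets), and a median of -0.16. As deposited 3 of the 6 were lower (against 22.3% of all probe sets), and with median centring 4 (against 13.9%). The share of prefoldin genes was not tested against other genes. Its gene PAC10 had signals of 771 and 749 in wild-type cells against 523 and 579 in mutant cells (-0.47 ± 0.14, SE, n = 2 per strain, limma adjusted p = 0.944). GIM3 stood at -0.37 ± 0.15 and YKE2 at -0.28 ± 0.18. The cytosolic chaperonin itself had a median of -0.03 over 8 genes, with 1 lower (CCT4) and 0 higher.

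Ribosome-associated factors had a median of -0.12 over 5 genes, 2 lower and 0 higher, where 18% of all probe sets were lower and 14% higher, with EGD2 of the nascent chain complex at -0.12 ± 0.06 and the J protein gene ZUO1 at -0.12 ± 0.08 (SE, n = 2 per strain). Other Hsp90 co-chaperones were at -0.08 over 5 genes, with PIH1 lower (-0.37 ± 0.22). Other cytosolic J proteins were at -0.11 over 7 genes, 1 higher (SWA2, 0.28 ± 0.18) and 2 lower (JJJ1, -0.24 ± 0.15, and DJP1, -0.19 ± 0.16). The other heat shock list stood at a median of 0.09, and 1 of its 8 genes was higher on both mutant arrays and 0 lower. The higher one was UBI4, the polyubiquitin gene, at 5786 and 4442 in wild-type cells against 7412 and 6045 in mutant cells (0.40 ± 0.17, limma adjusted p = 0.998).

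For other mitochondrial chaperones and proteases the median over 15 genes was -0.05, 3 higher and 4 lower (against 14% and 18% of all probe sets), with the largest differences at MDJ2 (-0.37 ± 0.32), the SSC1 paralog ECM10 (-0.37 ± 0.22) and the prohibitin gene PHB1 (0.24 ± 0.13). MDJ2 was dim, between 33.8 and 54.5. Other folding factors of the endoplasmic reticulum were at -0.08 over 14 genes, 1 higher and 3 lower, read against the same 14% and 18%. Among them the J protein gene SCJ1 stood at -0.30 ± 0.14, the cyclophilin gene CPR5 at -0.18 ± 0.07 and the sulfhydryl oxidase gene ERV2 at -0.15 ± 0.13. Genes of the unfolded protein response and of degradation from this compartment were at 0.03 over 8 genes, with 1 higher (UBC7, 0.07 ± 0.09) and 1 lower (USA1, -0.05 ± 0.13).

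**Figure D4:**
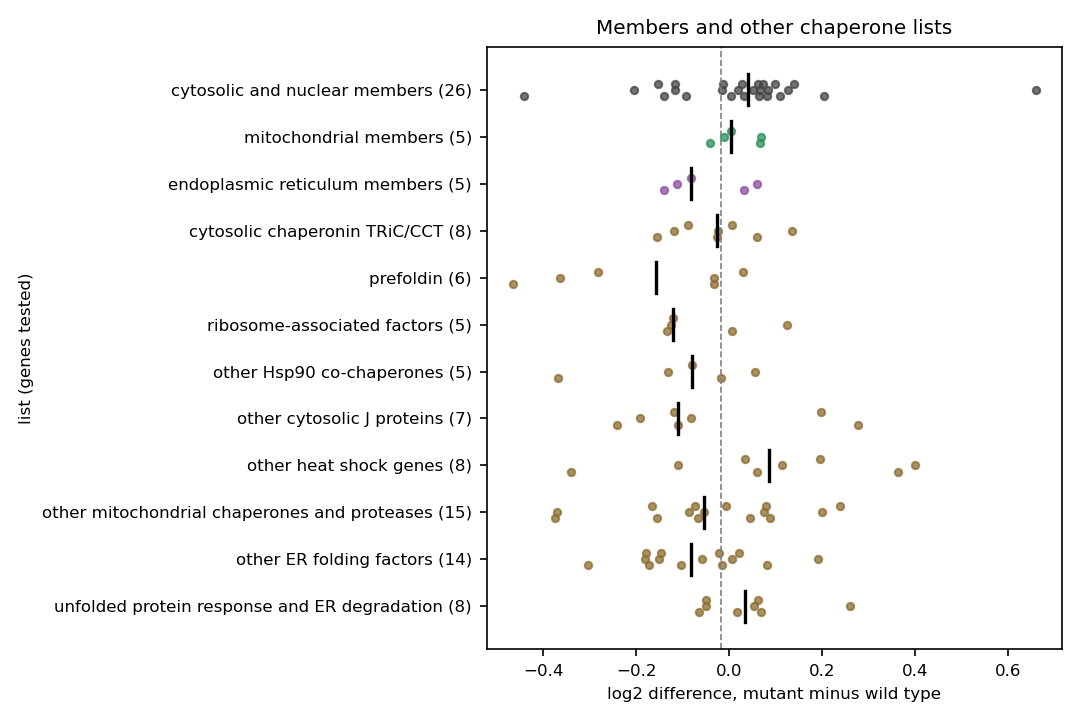
Log2 difference, mutant minus wild type (horizontal axis, log2 units), of the genes in the 3 compartments and in 9 other chaperone lists, each point a gene and each black bar the median of its list. The dashed line is the median of all probe sets tested, -0.02. SSA1 is the point furthest right and PAC10 and HSP42 are the points furthest left.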

How the data were processed

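The table deposited by the authors gives linear signal intensity for each probe set on each array. It was made with GCOS, per the submitters' processing notes; neither version nor scaling target is given in the sources used here. MAS5 intensity and present or absent calls come in another deposited table. There, the value columns with a strain in their header matched replicate 2 of that strain at all 10928 probe sets, and the 4 columns without one were not used. Calls thus came from 1 array per strain.

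The platform annotation names 1 S. cerevisiae gene for each of 5498 probe sets, with symbols updated by gene identifier against the R64 reference. Those called present in at least 1 of the call columns were tested (5376, for 5330 genes), and 122 were left out. Because the 2% trimmed means of the deposited signals differed (1298 and 1122 for wild type, 1034 and 1168 for mutant), normalization was applied. Signals under 0.1 were set to 0.1, and log2 signal was quantile-normalized over all probe sets. The brightest probe set stood for a gene.

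The strains were compared in limma 3.58.1 (R 4.3.3) by lmFit and eBayes, using a mean-variance trend, and p-values were adjusted by Benjamini-Hochberg over every probe set tested. Errors are limma's moderated SE. The fit was tested on simulated arrays that varied independently, without a shift by array number, so that test does not cover such a shift. Alternatives were the deposited values, median centring, no detection filter, no trend, a replicate block, the mean over a gene's probe sets, and each array left out. Of the other lists, up to 3 genes each were named, with the largest differences among those whose arrays did not overlap, and 2 names (HSP32 and HSP33) had no probe set here. The members and lists were chosen with earlier results of these data known. The number of arrays limits the precision, and the files name no genome build.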

Additional observations from a re-analysis of the deposited data

How the results depend on the processing

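No member passed the adjusted threshold under 9 of the 10 alternatives. With the replicate number as a block, limma called 3 members, SSA1 (0.66, adjusted p = 1.96e-14), HSP42 (-0.44, adjusted p = 0.0470) and PDI1 (-0.14, adjusted p = 0.0207), against 427 probe sets called higher (7.94% of all) and 401 lower (7.46%). The block left the differences as they were. In that fit, and in the one on the deposited values, limma took each variance from the trend alone, so a gene's own spread did not enter. Same-numbered arrays deviated together (correlation 0.634), but only 2 pairs exist and the labels give the number no meaning, so the block was not made part of the test.

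Over all probe sets, 6 were higher in the deposited values, 3 with median centring and 0 without the trend (limma), where 1 was higher in the reported fit. The deposited values moved the medians to -0.084 (cytosolic and nuclear), -0.10 (mitochondrial), -0.17 (endoplasmic reticulum) and -0.10 (all members), beside -0.15 for all probe sets. There 32 of the 36 differences were negative, and relative to that shift all 36 had the sign reported. Median centring gave 0.059 for the mitochondrial and -0.0096 for the endoplasmic reticulum members. It put 4 members above the wild type on both arrays, and the deposited values 0, where the report has 9.

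Leaving out 1 array at a time, where the remaining array of that strain is taken to vary like the other strain's, gave 2 to 4 probe sets higher. The medians ran from -0.051 to 0.079 for the cytosolic and nuclear members, from -0.070 to 0.067 for the mitochondrial, from -0.10 to -0.011 for the endoplasmic reticulum and from -0.024 to 0.060 for all members. Between 11 and 19 members then lay above the other strain and 8 to 11 below, since fewer arrays must be ordered. The matching shares of all probe sets were not counted, so these counts are not read as a result about the members. Without an array, 15 members kept their sign and 21 changed it at least once. Of these 21, HSP42 ran from -0.94 to 0.057, BTN2 from -0.54 to 0.64, SSE2 from -0.26 to 0.67, APJ1 from -0.23 to 0.45, CPR7 from -0.30 to 0.27, MDJ1 from -0.29 to 0.27, STI1 from -0.23 to 0.20, CUR1 from -0.25 to 0.011 and LHS1 from -0.22 to 0.055. SGT2 ran from -0.19 to 0.0022, FES1 from -0.13 to 0.19, HSP78 from -0.11 to 0.24, SIS1 from -0.083 to 0.23, SSC1 from -0.086 to 0.0033, HSP60 from -0.070 to 0.080 and JEM1 from -0.065 to 0.18. CPR6 ran from -0.039 to 0.16, AHA1 from -0.033 to 0.16, HCH1 from -0.025 to 0.063, SSB1 from -0.020 to 0.027 and ERO1 from -0.011 to 0.076. With 1 array left out the strains no longer hold the same array numbers, so a split by number enters the difference. Other causes of these shifts were not tested.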
